A study of Homo sapiens with 10 samples.

Results

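The 10 genes described here are WNT5A, WNT5B, WNT7B, WNT10A, DKK1, TCF7L2, LEF1, AXIN2, LRP6 and ROR1, a set of Wnt ligands, receptors, 1 antagonist and effectors of the pathway. They were chosen by name, with earlier results of these data known. The entries of the deposited gene tables that carry each symbol gave 10 of 23170 genes and 27 of 37557 isoforms. RNA-seq had been performed on 10 samples of PC3, a human prostate cancer cell line, in 4 lines. PC3-Epi (2 samples, labelled as the epithelial control of the series) is a luciferase-positive subpopulation picked for its bioluminescence and epithelial morphology. PC3-EMT14 (3 samples, labelled as mesenchymal) is a single sub-population isolated after PC3-Epi cells had been co-cultured with IL4-treated CD14+ macrophages. The other lines, written below as with OVOL1 and with OVOL2, were made from PC3-EMT14 by lentiviral transduction. PC3-EMT14-OVOL1 (3 samples) overexpresses OVOL1, and the 2 samples of PC3-EMT14-OVOL2 overexpress OVOL2, both zinc finger transcription factors of epithelial cells. All 4 lines thus descend from the luciferase-positive PC3-Epi population, and the labels name no empty-vector control. Each table held 1 FPKM value per line (fragments scaled by transcript length and, as the authors ran it, by an upper-quartile library factor), which the authors had pooled over the samples of that line. No spread between samples could therefore be computed, no test was made, and no difference given here has a replicate check. The depth of the samples is unknown.

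Wnt proteins are secreted lipid-modified ligands that bind Frizzled receptors. In the β-catenin branch, a ligand also engages LRP5 or LRP6, a destruction complex built on AXIN1 or AXIN2 is disabled, and β-catenin accumulates and acts with the TCF/LEF factors on target genes. AXIN2 is itself a widely used target of that branch, so that its product feeds back on the pathway. WNT5A acts largely outside β-catenin, through receptors such as ROR1 and ROR2, and is known for its role in cell migration. DKK1 blocks the β-catenin branch by binding LRP6 and is known in prostate cancer for its part in osteolytic bone lesions.

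The promoters of WNT5A and DKK1 are shown because WNT5A was the ligand of the set with a lower level in all 3 other lines than in PC3-EMT14, and DKK1 was the most abundant gene of the set. RefSeq start sites (GRCh38.p14) were on hand for 7 of the 10 genes, in 11 windows, and none was used for WNT7B, AXIN2 and LRP6. Not all lie at the deposited start of their gene. The only start used for LEF1 lies 10129 bases downstream of the deposited start, and that for WNT10A lies 319 bases downstream. The 250 bases before each start were searched on both strands for CCGTTA (an OVOL core sequence), for CACCTG (an E-box of the kind that ZEB factors bind) and for the TCF/LEF sites CTTTGAA or else CTTTGAT, along with their variants CTTTGTA or else CTTTGTT. None of these motifs contains another. Of all 35116 RefSeq promoter windows of this length, 2.45% held the OVOL core, 17.5% held the E-box and 12.0% held a TCF/LEF site. The sequences were read 5′ to 3′ along the strand of the gene and placed on hg19, the build of the deposited tables, by exact match. For WNT5A, at chr3:55521427-55521584 on the minus strand, 92 bases nearest the start that fall in an annotated WNT5A exon were left out, and the capitals mark the E-box. For DKK1, at chr10:54073791-54074040 on the plus strand, directly before the deposited start of the gene, the capitals mark 2 TCF/LEF letter matches.
WNT5A: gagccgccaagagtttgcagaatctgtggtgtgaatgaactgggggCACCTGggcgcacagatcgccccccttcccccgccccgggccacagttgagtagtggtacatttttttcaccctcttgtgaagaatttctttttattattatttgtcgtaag
DKK1: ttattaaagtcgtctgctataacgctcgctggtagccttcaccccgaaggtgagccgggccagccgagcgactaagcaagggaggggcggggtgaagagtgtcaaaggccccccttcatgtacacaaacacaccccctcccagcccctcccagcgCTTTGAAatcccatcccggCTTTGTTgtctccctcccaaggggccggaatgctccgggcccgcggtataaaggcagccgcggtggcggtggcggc
The E-box of WNT5A began at position -204 from the RefSeq start. The matches of DKK1 were CTTTGAA at -95 and CTTTGTT at -76. Neither window held CCGTTA, nor did any of the other windows of the 7 genes. The consensus that the paper gives for OVOL2 also allows other bases within this core. Those variants were not searched, so the absence holds for CCGTTA only. Among the searched motifs, the only further match was CTTTGTT at -133 in a window of an internal start of TCF7L2. A letter match is not a measured binding site.

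**Figure D1:**
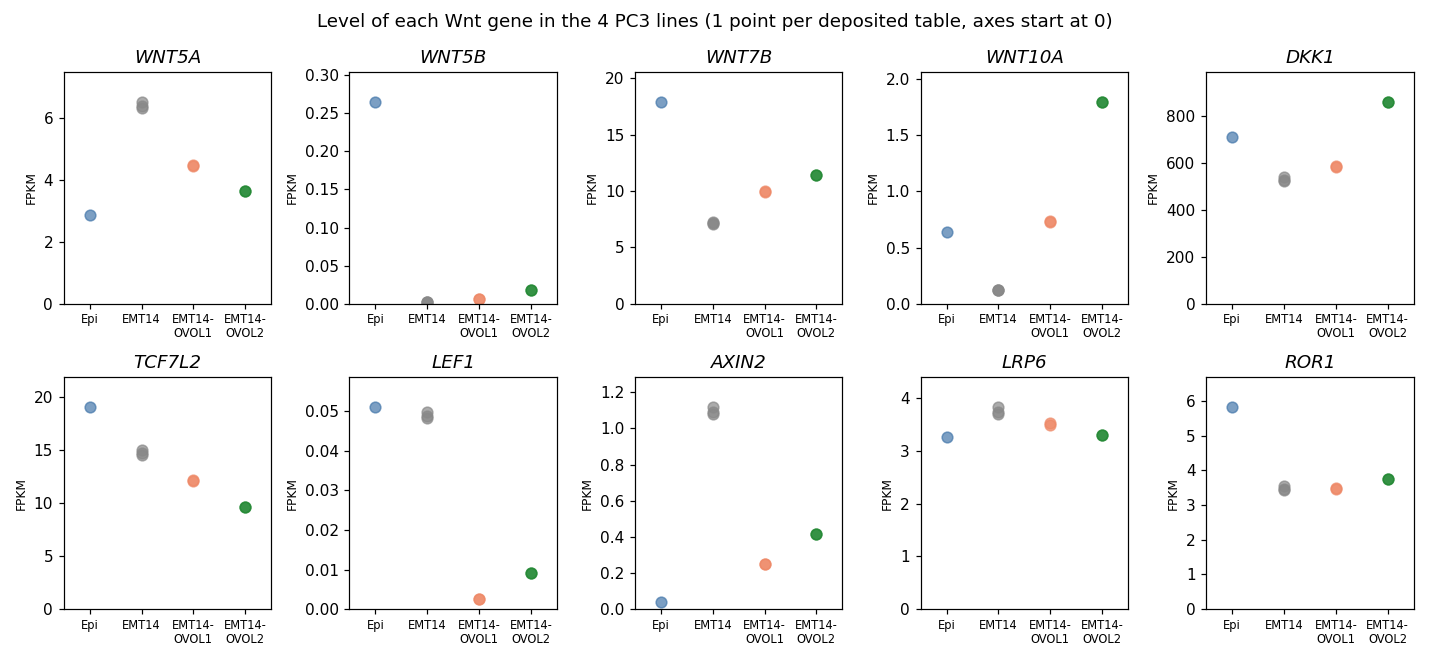
Level in FPKM (vertical axes, each from 0) of each of the 10 Wnt genes in the 4 lines (EMT14-OVOL1 and EMT14-OVOL2 on the axis are the OVOL lines). Each point is the pooled value of a line in 1 deposited table, so that the points of a line differ only through the scaling of the tables. DKK1 lies between 523 and 859 FPKM, while LEF1 does not exceed 0.0510 FPKM in any line.

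The genes of the set covered a wide range of levels on the FPKM scale, which accounts for transcript length. DKK1 was read at 523 FPKM or more, TCF7L2, WNT7B, WNT5A, LRP6 and ROR1 lay between 2.87 and 19.0 FPKM in every line, AXIN2 and WNT10A lay between 0.0389 and 1.79 FPKM, and WNT5B and LEF1 were close to 0. The same line had slightly different values in different tables, by a factor whose median ranged from 1.0004 to 1.03, so that each ratio below was taken within 1 table. A gene was counted as past 2-fold if the ratio of its 2 values was at least 2 or at most 0.5 and their mean was at least 0.5 FPKM.

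Between PC3-Epi and PC3-EMT14, the WNT7B ligand was higher in the epithelial line, while the WNT5A ligand and the feedback inhibitor AXIN2 were higher in the mesenchymal line. Of the 10 genes, 7 reached the floor of 0.5 FPKM. WNT7B was the 1 gene past 2-fold with the higher value in PC3-Epi, against 7.1% of all 12839 genes, and WNT5A and AXIN2 were the 2 past 2-fold with the lower value, against 8.12% of all genes. In either direction this came to 3 genes, against a background of 15.2%. AXIN2 reached the floor only through its level in PC3-EMT14, and with a floor of 1 FPKM it dropped out, which left 2 genes. The median log2 ratio of the 7 genes was 0.34, and that of all genes was -0.02.

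With OVOL1, AXIN2 was the 1 gene of 7 above the floor that was past 2-fold, with the lower value in the OVOL1 line. The background was 1.39% of 12757 genes in this direction, 2.13% in the other and 3.52% in both. With OVOL2, 8 genes were above the floor. WNT10A was past 2-fold with the higher value in PC3-EMT14-OVOL2, against 4.29% of 12855 genes, and AXIN2 with the lower value, against 2.7%. The background in either direction was 6.99%. The median log2 ratios of the genes above the floor were -0.08 with OVOL1 and -0.02 with OVOL2, beside -0.00 and -0.04 over all genes. AXIN2 reached the floor in both comparisons only through its level in PC3-EMT14, and WNT10A only through its level with OVOL2. With a floor of 1 FPKM both genes dropped out, so that the set had 0 genes past 2-fold with OVOL1 and 0 with OVOL2. With 1 FPKM added to both values it had 0 with OVOL1 and 1 with OVOL2. These comparisons share the PC3-EMT14 samples with each other and with that of PC3-Epi, so that a high or low value in PC3-EMT14 enters all 3. In the direct comparison of PC3-EMT14-OVOL2 with PC3-EMT14-OVOL1, WNT10A was the only gene of 7 past 2-fold. It was higher with OVOL2, against 1.81% of 12798 genes, and no gene was lower, against 0.805%; the background in both directions was 2.62%.

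**Figure D2:**
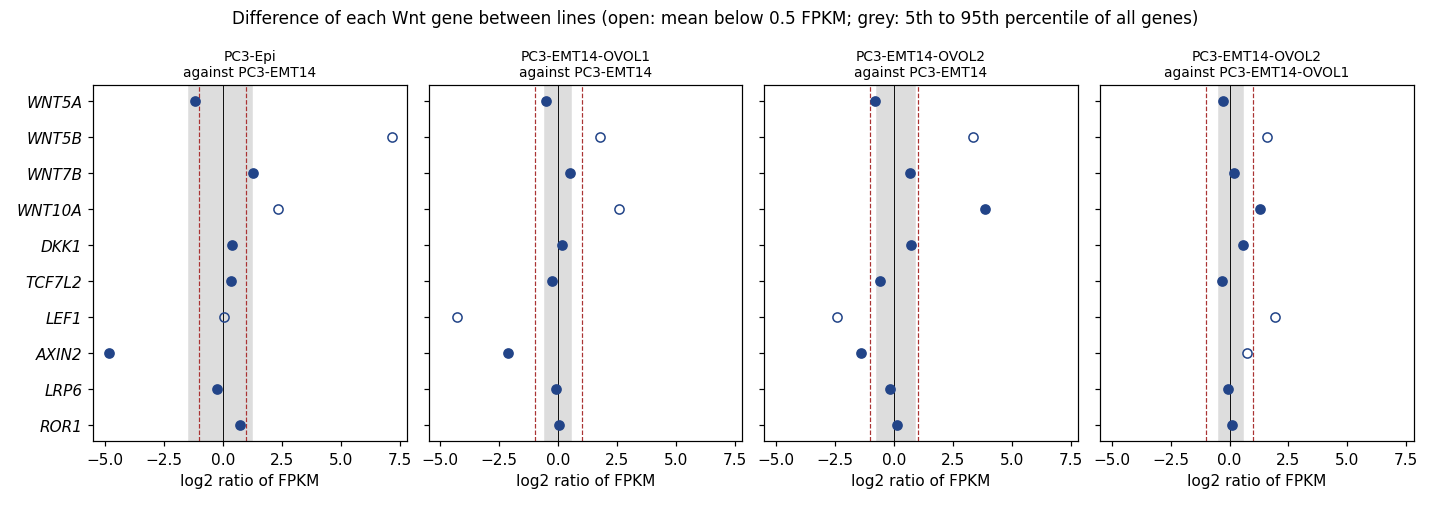
Log2 ratio of FPKM (horizontal axis) of each Wnt gene in 4 comparisons, with the line named first over the line named second, so that values to the right are higher in the first. Filled points have a mean of at least 0.5 FPKM and open points do not, dashed lines mark 2-fold, and grey bands run from the 5th to the 95th percentile of all genes above the floor. AXIN2 lies left of the 2-fold line in the 3 comparisons with PC3-EMT14, at -4.84, -2.13 and -1.38.

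Among the ligands, WNT5A (chr3:55499743-55521331, minus strand, gene entry XLOC_014969) was read at 6.31 to 6.51 FPKM in PC3-EMT14, depending on the table, and at 2.87 FPKM in PC3-Epi. It stood at 4.48 FPKM in PC3-EMT14-OVOL1 and at 3.64 FPKM in PC3-EMT14-OVOL2. PC3-EMT14 thus had the highest level and PC3-Epi the lowest, with the OVOL lines in between. The level in PC3-Epi was 2.26-fold lower than in PC3-EMT14, while the log2 ratios of -0.51 with OVOL1 and -0.80 with OVOL2 were under 2-fold. Only the values of PC3-Epi lay past 2-fold, and it was not tested whether the lines differ in their distance from PC3-EMT14. The 5th percentiles of all genes above the floor were -1.42 in PC3-Epi, -0.55 with OVOL1 and -0.72 with OVOL2. WNT5A lay below that percentile only with OVOL2, with a log2 ratio of -1.18 in PC3-Epi.

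WNT7B (chr22:46316248-46373008, minus strand, XLOC_014141), a ligand that can signal through β-catenin, had the reverse order of lines. It had 7.06 to 7.29 FPKM in PC3-EMT14 while PC3-Epi had 17.9 FPKM, a 2.45-fold higher level. The OVOL lines lay in between at 10.02 FPKM (OVOL1) and 11.4 FPKM (OVOL2), with log2 ratios to PC3-EMT14 of 0.49 and 0.69, both under 2-fold.

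WNT10A (chr2:219745255-219758651, plus strand, XLOC_012039), another ligand of the β-catenin branch, was below 1 FPKM in 3 of the 4 lines. Its level was 0.122 to 0.126 FPKM in PC3-EMT14, 0.636 FPKM in PC3-Epi, 0.736 FPKM in PC3-EMT14-OVOL1 and 1.79 FPKM in PC3-EMT14-OVOL2. The highest level was with OVOL2 and the lowest in PC3-EMT14. The ratio to PC3-EMT14 was 14.6-fold with OVOL2, where the mean of the lines, 0.957 FPKM, would not have reached a floor of 1 FPKM. This ratio rests on 0.122 FPKM in PC3-EMT14, and the log2 ratio of 3.87 became 3.09 with 0.1 FPKM added to both values and 1.31 with 1 FPKM added. The log2 ratios of 2.33 in PC3-Epi and 2.57 with OVOL1 come from means below the floor of 0.5 FPKM and were not counted. Directly between the OVOL lines the level was 2.46-fold higher with OVOL2, which with 1 FPKM added to both values became a log2 ratio of 0.69.

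WNT5B (chr12:1726222-1756378, plus strand, XLOC_004432), a close relative of WNT5A, was below the floor in every comparison. PC3-Epi had 0.265 FPKM, against 0.00176 to 0.00182 FPKM in PC3-EMT14. The OVOL lines had 0.00602 FPKM (OVOL1) and 0.0180 FPKM (OVOL2). The highest level was in PC3-Epi, and at these levels no fold was taken.

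Set against the other members of the WNT family, WNT7B and WNT5A were the third and the fourth by level in PC3-EMT14. Over 19 WNT genes the FPKM summed to 49.3 in PC3-EMT14 (in the table with PC3-Epi), 64.4 in PC3-Epi, 79.1 in PC3-EMT14-OVOL1 and 87.0 in PC3-EMT14-OVOL2. WNT5A made up 13.2% of that sum in PC3-EMT14, 4.46% in PC3-Epi, 5.67% with OVOL1 and 4.18% with OVOL2. WNT7B made up 14.8%, 27.8%, 12.7% and 13.1% in the same order of lines, so that of the 3 other lines only PC3-Epi had a larger share than PC3-EMT14, although the level of WNT7B was higher in all 3. The share of WNT10A did not exceed 2.06%, its value with OVOL2. The other large parts of the sum were WNT7A, at 43.5% in PC3-EMT14, 22.8% in PC3-Epi, 47.1% with OVOL1 and 29.8% with OVOL2, and WNT9A, at 16.2%, 34.5%, 22.4% and 40.4%. WNT7A was named after its values had been seen. At least 1 FPKM was reached by 6 of the 19 genes in PC3-EMT14, 5 in PC3-Epi, 6 with OVOL1 and 8 with OVOL2.

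**Figure D3:**
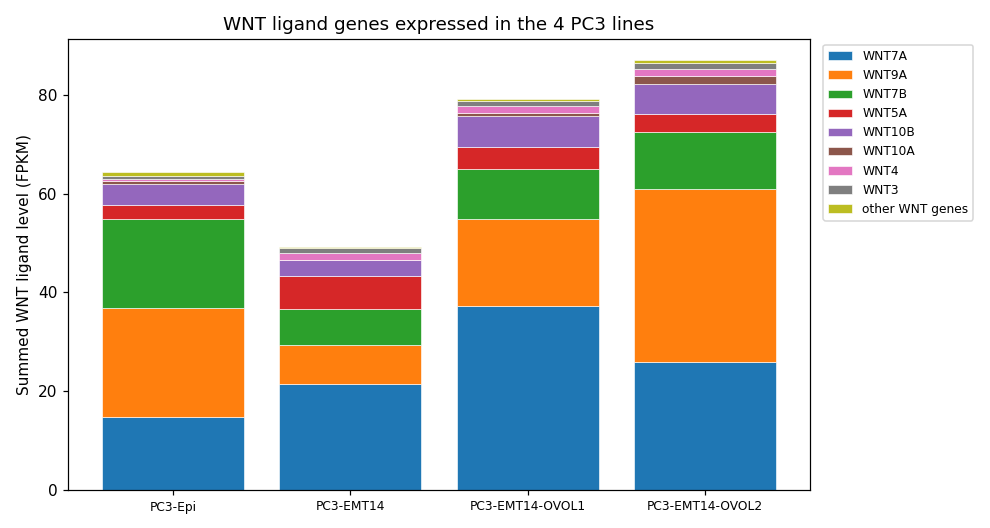
Summed level of 19 WNT genes in FPKM (vertical axis) in the 4 lines, with each gene as a coloured part of the bar. The sum is lowest for PC3-EMT14 (49.3 FPKM) and highest with OVOL2 (87.0 FPKM), and WNT5A is a larger part of the PC3-EMT14 bar (13.2%) than of the other bars.

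The receptors of the set were close in level across the lines. LRP6 (chr12:12268961-12419811, minus strand, XLOC_005077), the co-receptor that DKK1 binds, was read at 3.71 to 3.83 FPKM in PC3-EMT14, 3.28 FPKM in PC3-Epi, 3.54 FPKM with OVOL1 and 3.31 FPKM with OVOL2. Its log2 ratios to PC3-EMT14 were -0.23, -0.08 and -0.17, and its range over the 4 lines was the smallest of the 10 genes. ROR1 (chr1:64239690-64644707, plus strand, XLOC_000415), a receptor tyrosine kinase-like protein that binds WNT5A, was read at 5.82 FPKM in PC3-Epi, 3.43 to 3.55 FPKM in PC3-EMT14, 3.50 FPKM with OVOL1 and 3.77 FPKM with OVOL2. Only PC3-Epi stood apart, with a log2 ratio of 0.72 to PC3-EMT14, while those with OVOL1 and OVOL2 were 0.01 and 0.13, all under 2-fold. ROR1 and its ligand WNT5A thus had their highest levels in different lines.

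DKK1 (chr10:54074041-54077417, plus strand, XLOC_002358) was among the most abundant transcripts of each line. It was read at 523 to 539 FPKM in PC3-EMT14, 709 FPKM in PC3-Epi, 587 FPKM with OVOL1 and 859 FPKM with OVOL2. Among the 23170 gene entries it ranked 99 from the top in PC3-EMT14, 73 in PC3-Epi, 91 with OVOL1 and 34 with OVOL2. PC3-EMT14 had the lowest level and PC3-EMT14-OVOL2 the highest, yet the log2 ratios of 0.40, 0.15 and 0.72 were under 2-fold, as was that of 0.56 between the OVOL lines.

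AXIN2 (chr17:63524683-63557740, minus strand, XLOC_009429), the scaffold of the destruction complex and feedback target of β-catenin, was the gene of the set past 2-fold in all 3 comparisons with PC3-EMT14. Its level was 1.08 to 1.12 FPKM in PC3-EMT14, 0.0389 FPKM in PC3-Epi, 0.250 FPKM with OVOL1 and 0.414 FPKM with OVOL2. PC3-EMT14 was the only line near 1 FPKM. The level was 28.7-fold lower in PC3-Epi, 4.37-fold lower with OVOL1 and 2.61-fold lower with OVOL2. With OVOL2 it was 0.74 higher on the log2 scale than with OVOL1, a pair below the floor. These are low levels, and with 1 FPKM added to both values the log2 ratios shrank to -1.03 in PC3-Epi, -0.74 with OVOL1 and -0.56 with OVOL2, of which only the first is past 2-fold. With a floor of 1 FPKM, AXIN2 dropped out of the 3 comparisons.

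Of the nuclear effectors, TCF7L2 (chr10:114710009-114927436, plus strand, XLOC_002574), a DNA-binding partner of β-catenin, was read at 19.0 FPKM in PC3-Epi, 14.6 to 15.1 FPKM in PC3-EMT14, 12.2 FPKM with OVOL1 and 9.61 FPKM with OVOL2. The OVOL lines thus lay below PC3-EMT14 and PC3-Epi above it, all within 2-fold, with log2 ratios to PC3-EMT14 of 0.34, -0.27 and -0.60. LEF1 (chr4:108968701-109097586, minus strand, XLOC_016009), a related factor, was read at 0.0510 FPKM in PC3-Epi and 0.0483 to 0.0499 FPKM in PC3-EMT14. It stood at 0.00246 FPKM with OVOL1 and 0.00917 FPKM with OVOL2. LEF1 was therefore below the floor in all comparisons, and no fold was taken.

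TCF7L2 was the gene of the set with the largest number of isoforms, 13, of which 6 reached 10% of the summed isoform FPKM of the gene in some line and 2 were at 0 in all tables. Isoform TCONS_00004266 made up 12.4% of the sum in PC3-EMT14 (1.87 FPKM in the table with PC3-Epi), 46.9% in PC3-Epi (8.94 FPKM), 24.0% with OVOL1 (2.93 FPKM) and 21.8% with OVOL2 (2.09 FPKM). Its share was thus above that of PC3-EMT14 in the 3 other lines, while the level of the whole gene was below that of PC3-EMT14 in the OVOL lines. Isoform TCONS_00004272 made up 7.96% in PC3-EMT14, 0.198% in PC3-Epi, 4.36% with OVOL1 and 17.0% with OVOL2. The shares of the OVOL lines lay on opposite sides of PC3-EMT14 for that isoform. Isoform TCONS_00004268 made up 23.1% in PC3-EMT14, 13.2% in PC3-Epi, 21.6% with OVOL1 and 19.7% with OVOL2. Isoform TCONS_00004277 made up 14.0%, 13.6%, 16.3% and 7.71% in the same order. Its level was 2.05 FPKM in PC3-EMT14 and 0.741 FPKM with OVOL2, the values of a TCF7L2 isoform that the authors list as changed with OVOL2. The authors state that their listed isoforms also changed in PC3-Epi, where TCONS_00004277 had 2.60 FPKM, against 2.12 FPKM in PC3-EMT14. The other isoforms named by the 10% limit, TCONS_00004267 and TCONS_00004271, stayed between 7.91% and 14.1%. These are estimates that divide shared reads among overlapping transcripts, their errors are unknown, and the entries were not matched to exons here. Of the other genes, ROR1 had 2 isoforms, with TCONS_00000696 at 90.3% to 95.4% of the sum, WNT5B had 2 and LEF1 had 4 at levels too low for shares to be read, and the remaining 6 had 1 each.

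**Figure D4:**
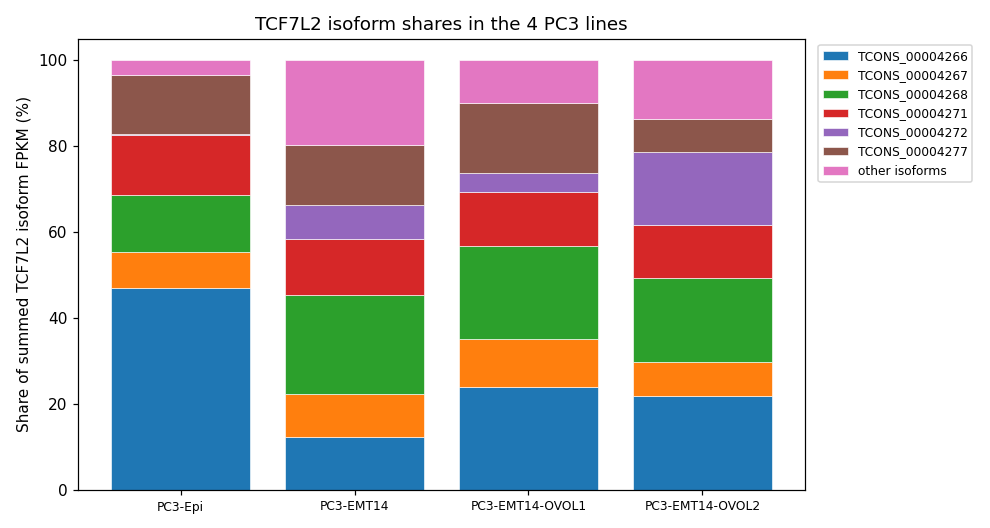
Share of the summed isoform FPKM of TCF7L2 in percent (vertical axis) in the 4 lines. Each colour is an isoform that reached 10% in some line, and the last colour holds the other isoforms. TCONS_00004266 is the largest part of the PC3-Epi bar, at 46.9%, and 12.4% of the PC3-EMT14 bar.

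The 10 genes were then set in a wider list of 84 Wnt pathway genes, from ligands to common target genes, of which 74 are not in the set. Between PC3-Epi and PC3-EMT14, 51 of the 84 were above the floor, and 7 were past 2-fold with the higher and 6 with the lower value in PC3-Epi, 25.5% in either direction beside the background of 15.2%. Without the 10 genes this was 6 and 4 of 44, or 22.7%. With OVOL1, 2 were higher and 2 lower of 50 (8%, beside 3.52%), and without the 10 genes 2 and 1 of 43, or 6.98%. With OVOL2, 4 were higher and 4 lower of 51 (15.7%, beside 6.99%), and without the 10 genes 3 and 3 of 43, or 14%. Between the OVOL lines, 3 were higher with OVOL2 and 0 were lower of 51 (5.88%, beside 2.62%). Without the 10 genes this was 2 and 0 of 44, or 4.55%. The count of 3 rests partly on ratios near the limit, since 1 was left with 0.1 FPKM added to both values. The median log2 ratios of the list were 0.04, 0.04, 0.03 and -0.00. The list was chosen with earlier results of these data known, and no set test was made on it.

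By role, the ligands, the receptors and the antagonists held most of the genes past 2-fold in PC3-Epi and with OVOL2. In PC3-Epi, 2 were higher and 2 lower of 7 ligands above the floor, 2 and 2 of 13 receptors, and 2 and 0 of 5 antagonists. With OVOL2 these were 2 and 0 of 8, 0 and 2 of 13, and 2 and 0 of 5. The counts are small, and these roles also make up most of the list, with 23, 18 and 15 genes. Among 10 transducers and destruction complex genes, AXIN2 was the only gene past 2-fold in any of the 4 comparisons. Among the ligands, WNT9A had 7.98 FPKM in PC3-EMT14 while PC3-Epi had 22.2 FPKM, and the log2 ratios to PC3-EMT14 were 1.48 in PC3-Epi, 1.18 with OVOL1 and 2.19 with OVOL2. WNT9A was thus a ligand past 2-fold in all 3. It was also higher with OVOL2 than with OVOL1, at 35.1 against 17.5 FPKM, barely past the 2-fold limit. WNT4 had 1.38 FPKM in PC3-EMT14 while PC3-Epi had 0.282 FPKM, the direction of WNT5A in that comparison. With OVOL1 it was nearly level, at 1.31 against 1.35 FPKM in PC3-EMT14. With OVOL2 it was slightly higher, at 1.44 against 1.33 FPKM, unlike WNT5A.

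Of 18 receptors and co-receptors, 13 were above the floor in each comparison with PC3-EMT14, and LRP6 and ROR1 were not among those past 2-fold. In PC3-Epi the Frizzled genes went both ways, with FZD5 at 2.86 against 0.780 FPKM and FZD7 at 2.54 against 0.826 FPKM on the higher side. FZD1 stood at 0.866 against 5.34 FPKM on the lower side. FZD8, the most abundant Frizzled gene in PC3-EMT14, was read at 91.4 FPKM there and 36.2 FPKM in PC3-Epi, and with OVOL2 at 41.7 against 88.5 FPKM. With OVOL1 the log2 ratio of FZD8 was -0.99, just under 2-fold, and FZD4 was past 2-fold with OVOL2, at 6.87 against 16.1 FPKM. No receptor was past 2-fold with OVOL1.

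Among 15 antagonists, 5 were above the floor, and those past 2-fold were on the higher side in each comparison, whereas DKK1 was under 2-fold. KREMEN2, a receptor that acts with DKK1 to remove LRP6 from the cell surface, had 1.10 FPKM in PC3-EMT14 while PC3-Epi had 2.93 FPKM, with log2 ratios of 1.41, 1.23 with OVOL1 and 1.57 with OVOL2. RNF43, a ligase that removes Frizzled receptors and is itself a target gene, had 0.754 FPKM in PC3-EMT14 against 2.34 FPKM for PC3-Epi, and 2.07 FPKM with OVOL2. Of the nuclear effectors, TCF7L1 (1.64 against 3.77 FPKM) and the co-repressor TLE2 (4.11 against 1.65 FPKM) were past 2-fold in PC3-Epi, and none were in the OVOL lines. TCF7L1, TLE2 and FZD8 were named in PC3-Epi after their values had been seen, since 8 other genes had larger ratios. Among the common target genes, those past 2-fold lay on both sides. Beside AXIN2, TNFRSF19 was on the lower side, at 0.819 against 2.25 FPKM with OVOL1 and 0.981 against 2.23 FPKM with OVOL2, and RNF43 was on the higher side in PC3-Epi and with OVOL2. The medians of the target genes above the floor were 0.24 in PC3-Epi, 0.23 with OVOL1 and 0.08 with OVOL2.

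**Figure D5:**
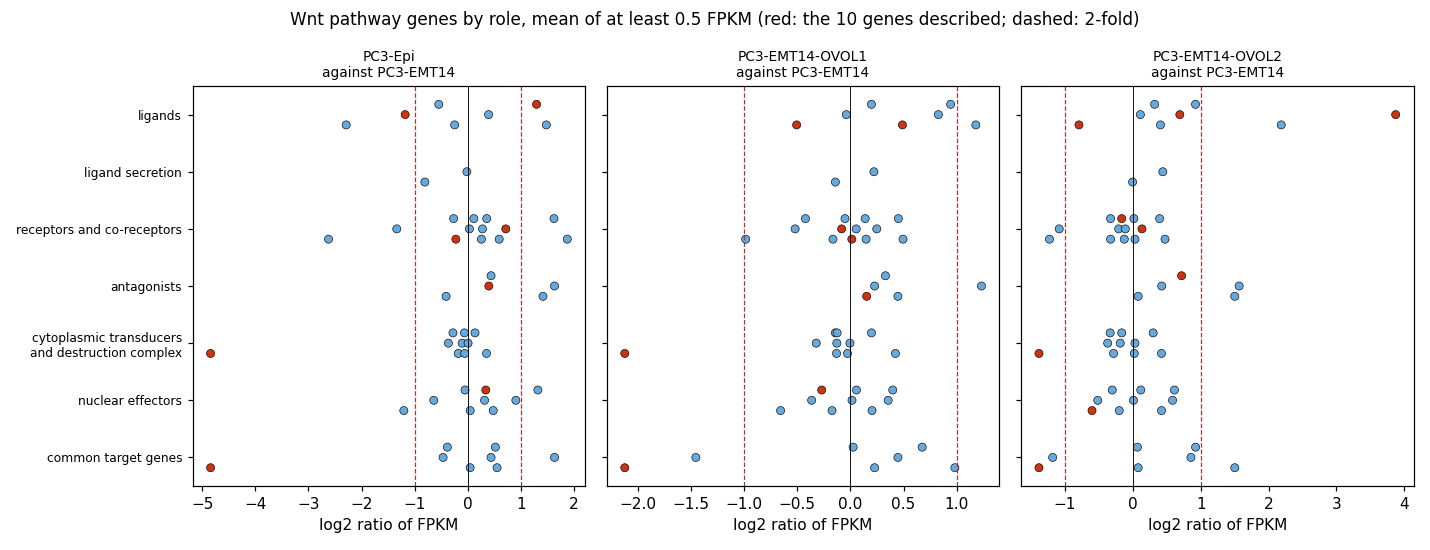
Log2 ratio of FPKM to PC3-EMT14 (horizontal axes, scaled separately in each panel) of the Wnt pathway genes above the floor, in rows by role, for PC3-Epi and both OVOL lines. Red points are the 10 genes described, blue points the others, dashed lines mark 2-fold, and AXIN2 appears both as a destruction complex gene and as a target, as do genes such as RNF43 that have 2 roles. The transducers other than AXIN2 lie within 2-fold in all 3 panels.

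For the 3 genes of the set with the largest range over the 4 lines among those with a mean of at least 0.5 FPKM, the genes of any kind with the most similar 3 log2 ratios to PC3-EMT14 were searched among 11969 genes with a mean of at least 1 FPKM, by Euclidean distance. For WNT5A the nearest were ZNF711, C3orf59 and DPY19L1, at distances of 0.048 to 0.078, and 34 genes lay within 0.25. For WNT7B they were CDT1, ADAMTS3 and SNORA8, at 0.037 to 0.080, with 31 genes within 0.25. The patterns of both ligands were thus not theirs alone, and how many such neighbours other genes have was not computed. For WNT10A no such genes are given, since 2 of its 3 ratios came from means below the floor. The 3 ratios share the PC3-EMT14 values, and the distances are a description.

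The labels were checked against defining genes. In its own line OVOL1 had 11.3 FPKM, against 0.0238 FPKM in PC3-EMT14, and OVOL2 had 831 FPKM, against 0.370 FPKM. The overexpressed genes thus differed in level between the OVOL lines, which the authors also made with different lentiviral constructs. A difference between these lines cannot be told apart from that of their levels or of their constructs. The epithelial adhesion gene CDH1 was read at 1.00 FPKM in PC3-EMT14, 50.6 FPKM in PC3-Epi, 16.2 FPKM with OVOL1 and 39.2 FPKM with OVOL2. The mesenchymal factor ZEB1 stood at 7.59, 0.130, 4.25 and 1.77 FPKM in the same order of lines. All 5 epithelial genes checked were above PC3-EMT14 and all 4 mesenchymal genes were below it in each of the 3 other lines, but the order of those lines varied. The splicing factor ESRP1 had 15.2 FPKM with OVOL1 and 11.7 FPKM with OVOL2, against 84.6 FPKM in PC3-Epi. The matrix gene FN1 had 36.8 FPKM in PC3-EMT14, 33.8 FPKM in PC3-Epi, 18.4 FPKM with OVOL1 and 16.5 FPKM with OVOL2, so that PC3-Epi was nearer to PC3-EMT14 than the OVOL lines were. The cadherin gene CDH2 had 11.3 FPKM in PC3-Epi, 13.3 FPKM with OVOL1 and 10.1 FPKM with OVOL2. Of 14 macrophage markers, all but CD68 were at or below 0.176 FPKM in all lines, with C1QA and C1QB at 0, and the 13 summed to 0.352 FPKM in PC3-Epi, 0.374 to 0.386 FPKM in PC3-EMT14, 0.366 to 0.370 FPKM with OVOL1 and 0.483 FPKM with OVOL2. CD68, a lysosomal gene, was read at 13.2 FPKM in PC3-Epi and 50.7 to 57.8 FPKM in the other lines, and its part in the results was not tested. The sources used here do not say whether the libraries kept strand. Reads of DKK1, LEF1, LRP6, ROR1 and TCF7L2 may therefore include reads of annotated genes on the opposite strand, such as PRKG1-AS1 at DKK1, LEF1-AS1 at LEF1 and BCL2L14 at LRP6. AXIN2, WNT7B and TCF7L2 overlap annotated genes on their own strand, whose reads strand would not set apart.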

How the data were processed

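RNA-seq of 10 samples in 4 PC3 lines was analysed, with lines taken from the sample labels. Pairs of 50-base reads were mapped by the authors with TopHat, guided by the hg19 transcriptome of UCSC, and lines were compared in pairs by Cuffdiff, with upper-quartile normalization and correction for multiply mapped reads and sequence bias; the labels also name FastQC and Cufflinks. They deposited 4 gene tables and 4 isoform tables. The FPKM values in them were pooled by the authors over the samples of a line, so that each line has 1 value per table. The tables also hold the authors' own fold changes, test statistics, p-values and q-values, which were not used. The number of per-sample columns left unused is 0.

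Ratios of the 2 deposited FPKM values were computed within each table in Python 3.11.15 with numpy 2.4.6 and pandas 2.3.3, without a pseudocount, and figures were drawn with matplotlib 3.10.9. A gene was counted from a mean of at least 0.5 FPKM and a ratio of at least 2 or at most 0.5. The counting was tested on simulated data. The 10 genes, the wider list of 84 genes and the marker lists were chosen with earlier results of these data known. Named are the 10 genes, up to 8 genes of the wider list past 2-fold in each comparison with the largest ratios, isoforms with at least 10% of their gene, the 3 nearest genes in pattern for the 3 genes of largest range (given for WNT5A and WNT7B, since WNT10A had ratios below the floor), and the marker genes. Alternatives were another floor, pseudocounts of 0.1 and 1 FPKM, a limit of 1.5-fold, centring on the median, and summed isoforms. With pooled values there is no interval or limit of detection, and a lower level may mean fewer cells that express a gene or less RNA per cell, which bulk samples cannot tell apart.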

Additional observations from a re-analysis of the deposited data

How the results depend on the processing

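With no floor, the counts of genes of the set past 2-fold were 5 in PC3-Epi (3 as reported), 4 with OVOL1 (1), 4 with OVOL2 (2) and 3 between the OVOL lines (1), and those of the wider list were 30 (13), 16 (4), 22 (8) and 12 (3). With a floor of 1 FPKM, the count of the set was 0 with OVOL1 and 0 with OVOL2. With 1 FPKM added, the set had 0 with OVOL1, 1 with OVOL2 and 0 between the OVOL lines, and the wider list had 6 in PC3-Epi, 1 with OVOL1, 5 with OVOL2 and 0 between the OVOL lines, where adding 0.1 FPKM left 1. At a limit of 1.5-fold, the set had 6 with OVOL2, and the wider list had 10 with OVOL1, 16 with OVOL2 and 5 between the OVOL lines. The share of all genes was computed only for the reported setting. The counts at other settings therefore have no background beside them and cannot be read as particular to Wnt genes. Centring on the median and summing isoforms left each count within 1.5 times. Log2 ratios were recomputed only where a gene was above the floor, which gave 29 ratios of 8 genes and left out WNT5B and LEF1, WNT10A in PC3-Epi and with OVOL1, and AXIN2 between the OVOL lines. Of their 177 values under these alternatives, 170 stayed within 1.5-fold, 7 moved further and 0 reversed. These 7 were AXIN2 and WNT10A with a pseudocount, for example -3.13 for AXIN2 in PC3-Epi and 3.09 for WNT10A with OVOL2 with 0.1 FPKM added. Most of the 170 could hardly move, since another floor leaves a ratio as it is and isoforms sum to their gene. Centring shifted ratios by 0.04 at most. With 0.1 FPKM added, 2 ratios moved and 27 stayed, and with 1 FPKM added, 5 moved and 24 stayed. A pseudocount cannot reverse a ratio, so the 0 was fixed in advance. No paired analysis was possible because the tables hold 1 pooled value per line, and for the same reason no sample could be left out in turn. The depth is unknown, so no limit of detection could be given for WNT5B and LEF1.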
